A study of Mus musculus with 12 samples.

Results

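Etv4, Etv5, Spry1, Spry2, Spry4, Spred1, Spred2, Dusp6 and Dusp4, 9 genes that respond to the ERK kinase cascade, were followed in ventricles taken from mouse embryos at E15.5. All 9 were found among the 38293 gene identifiers of the deposited table, and all 9 passed the filter on low counts that left 13964 genes for testing. They were selected by name as known feedback targets of fibroblast growth factor (FGF) and ERK signalling, but the list was drawn up with earlier results of these same 12 libraries in view. The values in the 4 genotype groups that informed the list are therefore given as a description, and a call of a listed gene is no independent support for its direction.

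Each genotype was represented by 3 pools of 4 pairs of ventricles, and polyA RNA was sequenced with single reads of 60 bases from a strand-specific library. The Mib1 mutant carried the stop allele Mib1 R530X over a loxP-flanked Mib1 allele together with Tnnt2-Cre, a driver active in cardiomyocytes. Its reference, called the Cre control here, carried the loxP-flanked allele over a normal allele with the same Tnnt2-Cre. The triple heterozygote carried Mib1 R530X, an Asxl3 missense allele (M1415V in the genotype label, M1361V in the protocol) and Apcdd1 V150I (written Apcdd in the label), each on 1 chromosome copy, with no loxP allele and no Cre listed. It was set against wild-type (WT) embryos. The stop allele is present in every cell of its carriers, whereas Tnnt2-Cre acts on the loxP-flanked allele in cardiomyocytes, and the counts per gene do not show how much of that allele was deleted. In bulk tissue, fewer cells of a type and less RNA per cell cannot be told apart.

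ERK is the last kinase of the cascade that carries signals from receptor tyrosine kinases, such as the FGF, ErbB and VEGF receptors, through Ras and Raf to the nucleus. Among its best known target genes are its own brakes: Sprouty and Spred proteins act on the receptor-to-Raf steps, and dual-specificity phosphatases (Dusp) remove the phosphates that activate ERK. Etv4 and Etv5 are ETS transcription factors induced by the same signal. In the embryonic heart, FGF signalling supports the growth of the ventricular wall. Transcript levels of these genes are used as a readout of the pathway, but phosphorylated ERK itself was not measured here.

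The libraries held 10103548 to 22157720 estimated reads, so that 1 read was worth 0.0452 to 0.0991 CPM (counts scaled to each library's effective size). Etv4, with the fewest reads of the 9, was covered by 40 to 142 estimated reads per library, and Spred1, the one with the most reads, by 760 to 1464. Mib1, the targeted gene, was measured at 54.8, 50.1 and 51.8 CPM in the Mib1 mutant pools and at 108, 107 and 101 CPM in the pools of the Cre control. It stood at 74, 57.9 and 74.1 CPM in the triple heterozygote and at 145, 126 and 136 CPM in WT. The carriers of the stop allele were lower than their references in every pool. The cardiomyocyte myosin gene Myh7 was at 16800 to 20200 CPM over the 12 pools. Replicate 1 of the Mib1 mutant and of the Cre control stood apart by Xist, the RNA of the inactive X chromosome, at 0.095 and 0.387 CPM against 71.5 to 458 CPM in the other 10 pools. The calls among the 9 genes are also given without these 2 pools.

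The transcription factor genes Etv5 and Etv4 rose in the Mib1 mutant, and Etv5 had the largest difference of the 9 genes. Etv5 (ENSMUSG00000013089; GRCm38 chromosome 16, 22381309 to 22439719, minus strand) stood at 38.5, 43.3 and 37.2 CPM in the Mib1 mutant pools and at 21.1, 18.2 and 20.6 CPM in the pools of the Cre control. The groups did not overlap, and each Mib1 mutant pool was also above the 9 other pools of the series, whose range was 18.2 to 30.9 CPM. The fold change of Etv5 was 1.98, or 0.99 on the log2 scale (SE 0.12, n = 3 pools each), and its edgeR adjusted p was 0.000388. Here and in all that follows, the edgeR adjusted p is that of the quasi-likelihood test, adjusted by Benjamini and Hochberg's method over all genes tested. The mean was 39.7 ± 3.18 CPM in the Mib1 mutant, 20 ± 1.52 CPM in the Cre control and 24.3 ± 1.43 CPM in WT (SD, n = 3 each), and the Cre control pools all lay below the WT pools. Without the 2 pools low in Xist the log2 value was 1.04 (edgeR adjusted p 0.0071).

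Etv4 (ENSMUSG00000017724; GRCm38 chromosome 11, 101769742 to 101785371, minus strand), the close relative of Etv5, had fewer reads per length of exon. It reached 7.89, 10.8 and 9.31 CPM in the Mib1 mutant pools and 4.44, 5.93 and 5.14 CPM in the Cre control pools. As with Etv5, the Mib1 mutant pools lay above the 9 others, which spanned 3.47 to 6.42 CPM. Etv4 rose 1.8-fold (log2 0.85, SE 0.20, edgeR adjusted p 0.0428). This call sat close to the threshold: it was lost without Mib1 mutant replicate 2 (0.0786) or 3 (0.0901), without Cre control replicate 1 (0.154), 2 (0.0771) or 3 (0.138), without the 2 pools low in Xist (0.152), when the 6 libraries were fitted by themselves (0.0867), and without triple heterozygote replicate 3 (0.0516) or WT replicate 2 (0.0657), which are not part of the comparison but are in the fit. The log2 value itself stayed between 0.73 and 0.95. Etv5 kept its call in all 20 alternative settings, with edgeR adjusted p, or that of DESeq2 or limma-voom, of at most 0.0071.

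Etv5 in the triple heterozygote was at 21.4, 23.7 and 30.9 CPM, against 23.4, 23.6 and 26 CPM in WT, so that the triple heterozygote pools reached both below and above the WT pools. Its log2 difference was 0.05 (SE 0.12), with a 95% interval of -0.22 to 0.33 that does not reach the value of the Mib1 mutant. Etv4 was at 4.36, 6.42 and 5.05 CPM in the triple heterozygote and at 3.47, 3.96 and 5.1 CPM in WT. The pools overlapped, and the log2 difference of 0.36 (SE 0.21, 95% interval -0.11 to 0.83, edgeR adjusted p 0.617) did not pass. The difference between the 2 genotype effects was tested in the same fit, as the effect in the Mib1 mutant minus that in the triple heterozygote. Etv5 passed this test (0.94, SE 0.17, edgeR adjusted p 0.0224) and Etv4 did not (0.49, SE 0.28, edgeR adjusted p 0.449). The Etv5 call was lost without the 2 pools low in Xist (0.0752) and without any 1 of Cre control replicates 2 and 3, triple heterozygote replicates 1 and 2 and the 3 WT pools, at adjusted p of 0.0508 to 0.0851, while its log2 value stayed between 0.84 and 1.09.

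**Figure D1:**
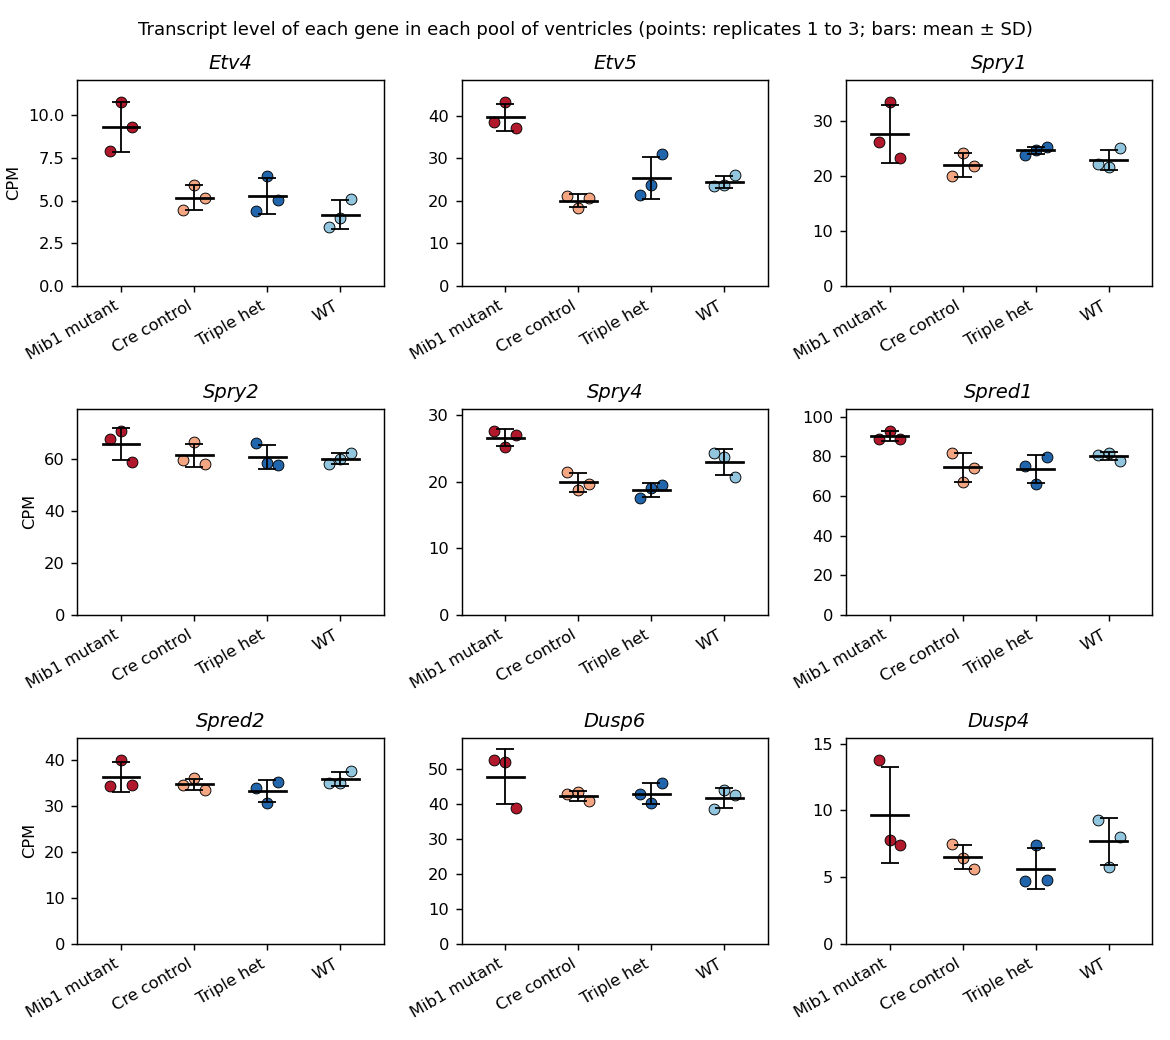
Transcript level (CPM, axis from 0) of the 9 genes in each pool, by genotype; points are replicates 1 to 3 from left to right, with the mean and SD. Etv5 in the Mib1 mutant (37.2 to 43.3 CPM), Etv4 (7.89 to 10.8), Spry4 (25.2 to 27.7) and Spred1 (88.7 to 93) lie above all 9 other pools. The pools of Spry1, Spry2, Spred2, Dusp6 and Dusp4 overlap.

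Promoter windows of 250 bases before to 50 bases after the RefSeq start (RefSeq, GRCm38.p6) were available for 6 of the 9 genes, 7 windows in all. Etv4, Spry4 and Dusp4 had none, so the motif counts below do not cover them. Those of Etv5 are shown because it changed most, that of Spred1 because its pools also stood apart, and that of Dusp6 for contrast, as its pools overlapped. Each is written 5′ to 3′ along the gene, with capitals for the ETS letters CCGGAA, for the ETS letters written AGGAAG, for pairs of the core GGAA at most 12 bases apart (start to start, on either strand) and for the letters TGGGAA, the core bound by the Notch factor RBPJ, which itself holds GGAA.

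Etv5 (chr16:22439521-22439820, minus strand): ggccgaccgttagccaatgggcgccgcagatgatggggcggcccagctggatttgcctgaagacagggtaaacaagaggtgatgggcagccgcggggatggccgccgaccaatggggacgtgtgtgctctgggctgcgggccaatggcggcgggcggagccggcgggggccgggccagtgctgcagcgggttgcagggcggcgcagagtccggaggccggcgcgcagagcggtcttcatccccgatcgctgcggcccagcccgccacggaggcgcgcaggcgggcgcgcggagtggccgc

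Etv5 (chr16:22438319-22438618, minus strand): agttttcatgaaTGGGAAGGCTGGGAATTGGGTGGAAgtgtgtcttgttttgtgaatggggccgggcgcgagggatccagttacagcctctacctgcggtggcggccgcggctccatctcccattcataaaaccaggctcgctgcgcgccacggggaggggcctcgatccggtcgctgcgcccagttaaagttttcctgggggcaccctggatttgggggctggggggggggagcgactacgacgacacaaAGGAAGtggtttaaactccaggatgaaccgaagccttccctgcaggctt

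Spred1 (chr2:117120821-117121120, plus strand): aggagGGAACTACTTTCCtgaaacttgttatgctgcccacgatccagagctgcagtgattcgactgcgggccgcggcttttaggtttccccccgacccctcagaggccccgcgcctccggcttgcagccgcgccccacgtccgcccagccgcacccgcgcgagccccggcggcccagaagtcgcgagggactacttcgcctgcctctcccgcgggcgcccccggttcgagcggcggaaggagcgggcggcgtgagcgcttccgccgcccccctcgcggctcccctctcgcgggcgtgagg

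Dusp6 (chr10:99262981-99263280, plus strand): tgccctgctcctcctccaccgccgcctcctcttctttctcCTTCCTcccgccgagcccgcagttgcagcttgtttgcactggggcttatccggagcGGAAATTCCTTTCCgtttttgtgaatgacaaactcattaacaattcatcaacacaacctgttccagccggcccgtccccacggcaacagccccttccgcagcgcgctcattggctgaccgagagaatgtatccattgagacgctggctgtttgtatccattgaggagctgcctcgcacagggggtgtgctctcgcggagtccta

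The first Etv5 window, at the upstream start, held none of the motifs searched. The second held 2 TGGGAA matches at -238 and -229, both of them part of GGAA pairs, and AGGAAG at +2, counted from the start at +1. In the Spred1 window a GGAA pair began at -245, and in that of Dusp6 pairs began at -154 and -149 with AGGAAG, on the opposite strand, at -210. Pairs of GGAA were found in 5 of the 7 windows and in 30.2% of the 32851 windows of the table, AGGAAG in 3 and 35.4%, TGGGAA in 2 and 25.6%, and CCGGAA in 1 and 14.9%. The capicua letters TGAATGAA and TGAATGGA were in 0 of the 7 windows and in 1.3% and 1.21% of all windows. Other spellings of the capicua site were not sought, so these counts do not show that such sites are absent. The AP-1 letters (TGACTCA or TGAGTCA) and the CREB letters TGACGTCA were in 0 of the 7, and in 5.2% and 1.79% of all. All motifs were sought on both strands, and a match is a description of letters only.

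Of the Sprouty genes, which encode inhibitors of the steps between receptor and Raf, Spry4 rose in the Mib1 mutant. Spry4 (ENSMUSG00000024427; chromosome 18, 38586247 to 38601415, minus strand) had 27.7, 25.2 and 27 CPM in the Mib1 mutant pools and 21.5, 18.7 and 19.6 CPM in the Cre control pools. The Mib1 mutant pools were again the highest of the series, the 9 others lying between 17.5 and 24.4 CPM. Its fold change was 1.34 (log2 0.42, SE 0.09, edgeR adjusted p 0.0358). The mean was 26.6 CPM in the Mib1 mutant, 19.9 CPM in the Cre control and 23 CPM in WT. Between the Cre control and WT the log2 difference was -0.21 (SE 0.09, edgeR adjusted p 0.587), with overlap of the pools. The call was lost, with the log2 value between 0.38 and 0.47, without Mib1 mutant replicate 1 (0.117) or 3 (0.0882), without Cre control replicate 1 (0.0502), 2 (0.173) or 3 (0.134), without WT replicate 2 (0.0603), without the 2 pools low in Xist (0.123) and when those 6 libraries were fitted by themselves (0.117).

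Spry4 had lower values in the triple heterozygote, at 17.5, 19.1 and 19.5 CPM against 24.4, 23.7 and 20.8 CPM in WT. Every triple heterozygote pool was below every WT pool, yet the log2 difference of -0.29 (SE 0.09, edgeR adjusted p 0.559) did not pass. Spry4 passed the test of the difference between the 2 genotype effects (0.71, SE 0.13, edgeR adjusted p 0.0257). That call was lost without the 2 pools low in Xist (0.0717) and without any 1 of Mib1 mutant replicates 1 and 3, Cre control replicates 2 and 3, triple heterozygote replicates 1 and 2 and WT replicates 1 and 2, at adjusted p of 0.0623 to 0.0933, with log2 values of 0.66 to 0.78. Spry4 lies on chromosome 18, which also carries Mib1, and a part of linked sequence in its values was not tested.

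Spry1 and Spry2, the other Sprouty genes of the list, did not pass in either genotype comparison. Spry1 (ENSMUSG00000037211; chromosome 3) was at 26.2, 33.5 and 23.2 CPM in the Mib1 mutant and at 19.9, 24.2 and 21.8 CPM in the Cre control. Replicate 2 stood above the rest, and replicate 3 fell within the Cre control range; the log2 difference was 0.33 (SE 0.12, edgeR adjusted p 0.221), and 0.17 without Mib1 mutant replicate 2. Spry2 (ENSMUSG00000022114; chromosome 14) was at 67.7, 70.9 and 58.7 CPM in the Mib1 mutant and at 59.7, 66.4 and 58.2 CPM in the Cre control. These pools overlapped, with a log2 difference of 0.10 (SE 0.09, 95% interval -0.10 to 0.30). Between the triple heterozygote and WT the log2 differences were 0.10 (SE 0.12) for Spry1 and 0.01 (SE 0.09) for Spry2.

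Spred1 and Spred2 encode Sprouty-related proteins that hold back the activation of Raf. Spred1 (ENSMUSG00000027351; chromosome 2) had 89, 93 and 88.7 CPM in the Mib1 mutant pools and 81.9, 67.3 and 74.3 CPM in the Cre control pools. The Mib1 mutant pools were close together and above the 9 others (66.2 to 81.9 CPM), but the log2 difference of 0.28 (SE 0.08, 95% interval 0.08 to 0.47, edgeR adjusted p 0.123) did not pass, nor did it in any of the 20 alternative settings. Spred2 (ENSMUSG00000045671; chromosome 11) was at 34.4, 40.1 and 34.6 CPM in the Mib1 mutant and at 34.6, 36 and 33.5 CPM in the Cre control. Only replicate 2 stood above the Cre control pools, and the log2 difference of 0.07 (SE 0.08) turned to -0.01 without it. Both genes in the triple heterozygote lay slightly below WT, by a log2 value of -0.12 (SE 0.08) for each gene, with overlap of the pools and edgeR adjusted p of 0.653 for Spred1 and 0.672 for Spred2.

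The phosphatase genes did not pass in any comparison. Dusp6, whose product removes the activating phosphates of ERK in the cytoplasm (ENSMUSG00000019960; chromosome 10), was at 52.8, 52 and 38.8 CPM in the Mib1 mutant and at 42.9, 43.4 and 40.8 CPM in the Cre control. Replicates 1 and 2 of the Mib1 mutant were above every Cre control pool and replicate 3 was below them all. The log2 difference was 0.18 (SE 0.11, edgeR adjusted p 0.501), and 0.30 (0.115) without Mib1 mutant replicate 3. Dusp4, a nuclear phosphatase of the same family (ENSMUSG00000031530; chromosome 8), was at 13.8, 7.74 and 7.41 CPM in the Mib1 mutant and at 7.44, 6.38 and 5.61 CPM in the Cre control. Replicate 1 stood far above the other Mib1 mutant pools, and the log2 difference of 0.58 (SE 0.26, edgeR adjusted p 0.322) became 0.23 without it. Dusp4 in the triple heterozygote was at 4.72, 7.37 and 4.76 CPM against 9.27, 5.73 and 7.97 CPM in WT, with overlap and a log2 difference of -0.41 (SE 0.26, edgeR adjusted p 0.64), and Dusp6 differed by 0.04 (SE 0.11).

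**Figure D2:**
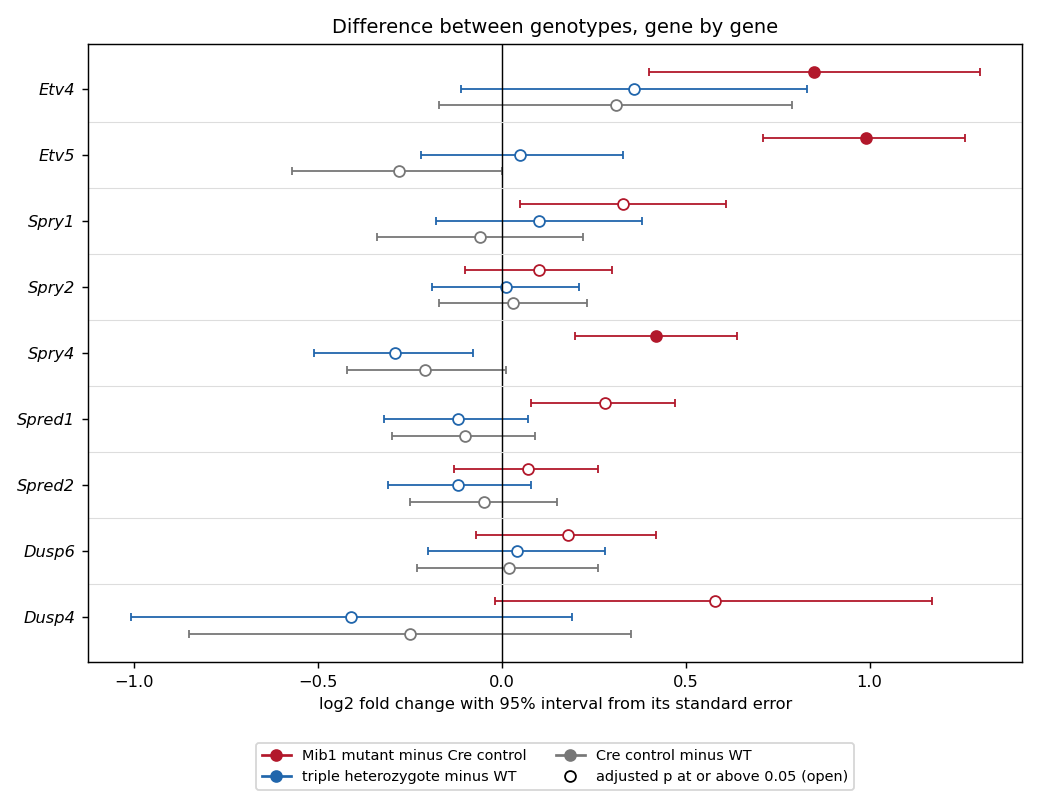
Log2 fold change of each gene in 3 comparisons, with 95% intervals from the standard error on 8 residual degrees of freedom; filled points passed an edgeR adjusted p of 0.05. The filled points are Etv5 (0.99), Etv4 (0.85) and Spry4 (0.42) in Mib1 mutant minus Cre control.

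Counted together, 3 of the 9 genes rose in the Mib1 mutant relative to its Cre control, beside 0.909% of all genes tested that rose, and 0 fell. All 9 had positive values, as had 51.2% of all genes tested, with a median of 0.33 where that of all genes was 0.00. In 4 of the 9 (Etv4, Etv5, Spry4 and Spred1) every Mib1 mutant pool was above every Cre control pool, as in 8.86% of all genes, and in the same 4 above all 9 other pools, as in 3.18% of all genes. Because the list was drawn up with these values known, the shares are given without a reading. The test of the difference between the 2 genotype effects was passed by 2 of the 9, beside 0.322% of all genes that passed in that direction.

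Against WT, in the triple heterozygote, none of the 9 passed (0.0215% of all genes did, in either direction), 5 values were positive and 4 negative, and the median was 0.01. By unadjusted p, 1 of the 9 was under 0.05, as were 8.66% of all genes, limma-voom called 0 of the 9, and DESeq2 called 0 of the 3 genes to which it gave an adjusted p. The only gene whose triple heterozygote pools all lay below those of WT was Spry4, as in 9.19% of all genes. The Cre control differed from WT in none of the 9 (0.279% of all genes passed, in either direction), and DESeq2 and limma-voom called 0. By unadjusted p, 2 of the 9 (Etv5 and Spry4) were under 0.05, as were 8.43% of all genes. Etv5 alone had Cre control pools wholly below WT, as in 10.2% of all genes; its log2 difference was -0.28 (SE 0.12, edgeR adjusted p 0.562). This comparison and that of the Mib1 mutant share the Cre control pools.

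Per length of exon, Spry2 was the most abundant of the 9 in every group and Etv4 the least. In the Mib1 mutant the order was Spry2 (31.5 ± 3.04 RPKM, reads scaled to exon length and library size), Dusp6 (15.3 ± 2.52), Spred1 (13.3 ± 0.355), Etv5 (9.67 ± 0.774), Spry1 (9.51 ± 1.82), Spred2 (7.87 ± 0.701), Spry4 (5.59 ± 0.27), Dusp4 (3.52 ± 1.31) and Etv4 (3.01 ± 0.471; SD, n = 3 each). Neighbours whose pools overlapped there were Dusp6 and Spred1, Etv5 and Spry1, Spry1 and Spred2, and Dusp4 and Etv4. In the Cre control Etv5 held the place of the sixth gene, at 4.87 ± 0.37, below Spry1 (7.55 ± 0.737) and Spred2 (7.51 ± 0.279), and overlapped with Spry4 (4.19 ± 0.296). The order from Spry2 to Etv4 was the same in the Cre control, the triple heterozygote and WT, and the Mib1 mutant differed from them in that Etv5 ranked ahead of Spry1 and Spred2.

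The 9 genes did not move as 1 unit from pool to pool. Over the 12 pools the Pearson r of log2 CPM between 2 of the genes was positive in all 36 pairs, with a median of 0.45 and a range of 0.10 (Spred2 and Dusp4) to 0.83 (Spry4 and Spred1). After the group means were removed the median was 0.15, and 21 of the 36 pairs were positive. Within groups Spry1 and Spred2 (0.73), Spry1 and Spry2 (0.66) and Spry2 and Dusp6 (0.65) varied together, while Spry4 ran against Spry2 (-0.64) and Spry1 (-0.62). These values describe 12 pools that share groups and depth. The mean of the standardised levels of the 9 genes was 1.20, 1.64 and 0.33 in the Mib1 mutant pools, -0.37, -0.29 and -0.69 in the Cre control, -0.51, -0.65 and -0.18 in the triple heterozygote and -0.30, -0.27 and 0.10 in WT. Mib1 mutant replicate 3 was the closest of the 3 to the other groups. Among 11534 other named protein-coding genes with a mean of at least 2 CPM, those most like this mean over the 12 pools by Pearson r were Tpm4 (0.93), Tmem43 (0.93), Pmepa1 (0.92), F2r (0.92) and Il1r1 (0.92). After the group means were removed, their r with the mean of the 9 genes was 0.43, 0.82, 0.70, 0.54 and 0.71, in the same order.

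**Figure D3:**
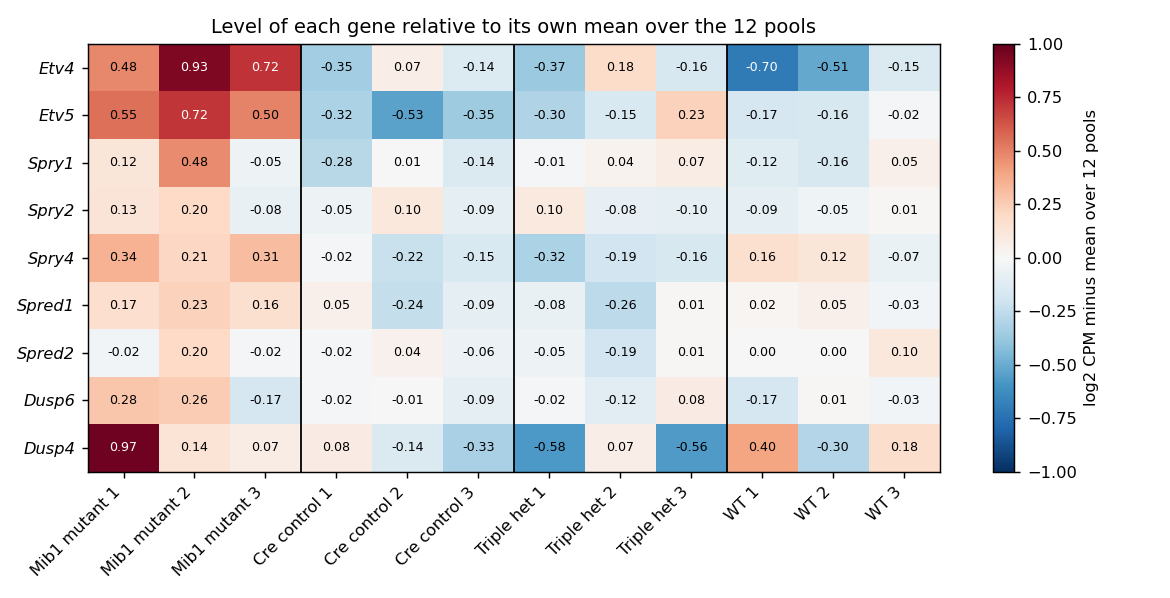
Log2 CPM of the 9 genes in the 12 pools, each relative to its own mean over all pools (colour and number). Etv4, Etv5, Spry4 and Spred1 are raised in all 3 Mib1 mutant pools. Dusp4 is raised mainly in replicate 1 (0.97), and Dusp6 in replicates 1 and 2 (0.28 and 0.26) but not in replicate 3 (-0.17).

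Other genes of the pathway were described with 7 lists holding 118 genes, of which 97 were tested. In the Mib1 mutant 1 of the 97 rose, a share close to the 0.909% of all genes that rose, and 0 fell. Positive values made up 76.3% of the 97 (74 genes) and 51.2% of all genes, with medians of 0.10 and 0.00, and 15 of the 97 and 14% of all genes had an unadjusted p under 0.05. The gene that rose was Flrt3, which encodes a membrane protein that binds FGF receptors. Flrt3 was at 24.1, 27.6 and 23.4 CPM in the Mib1 mutant pools and at 12.9, 15.9 and 20.2 CPM in the pools of the Cre control, with no overlap. Its log2 value was 0.60 (SE 0.13, edgeR adjusted p 0.0289), and the call was lost in 7 of 20 alternative settings, at adjusted p of 0.0502 to 0.158: when those 6 libraries were fitted by themselves, without the 2 pools low in Xist, without any 1 of the Mib1 mutant pools and without Cre control replicate 1 or 2. In the triple heterozygote against WT, 0 of the 97 passed, with 8 (8.25%) at an unadjusted p under 0.05 beside 8.66% of all genes, 40 positive and 57 negative values and a median of -0.03. DESeq2 and limma-voom also called 0, but DESeq2 gave an adjusted p to only 4759 of all genes in this comparison.

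The ligands and receptors gave little to call. Of 18 FGF ligand genes only 5 were abundant enough to test, none passed in the Mib1 mutant, and the smallest p was that of Fgf7 (log2 -0.57, SE 0.54, edgeR adjusted p 0.703). Of 9 tested FGF receptor and co-receptor genes only Flrt3 passed, and the median was 0.13. Among 20 genes of other growth factors and receptors 17 values were positive with a median of 0.17, 0 passed and 6 had an unadjusted p under 0.05, where 51.2% of all genes were positive and 14% had such a p. The smallest p there was that of the insulin-like growth factor receptor gene Igf1r (log2 0.33, SE 0.13, edgeR adjusted p 0.253). The 25 genes listed for the Ras cascade had a median of 0.06, with 0 calls and the smallest p in Lztr1 (log2 0.18, SE 0.08, edgeR adjusted p 0.345).

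None of the other genes downstream of ERK passed. Of 11 tested relatives of the 9 genes (Etv1, Spred3, Il17rd and other Dusp genes) all 11 were positive in the Mib1 mutant, with a median of 0.17, 0 calls and 3 at an unadjusted p under 0.05, again beside 51.2% and 14% of all genes. Il17rd, a membrane inhibitor of FGF signalling, was at 17.6, 14.5 and 19 CPM in the Mib1 mutant and at 13.4, 8.24 and 12.9 CPM in the Cre control. Its pools did not overlap, and its log2 value was 0.56 (SE 0.18, edgeR adjusted p 0.16). Of 14 other transcripts induced by ERK 11 were positive, with a median of 0.32, 0 calls and 4 at an unadjusted p under 0.05, beside the same shares of all genes. The early response gene Egr1 had the smallest p (log2 0.99, SE 0.27, edgeR adjusted p 0.0904), and its mean rested on 1 pool, with 50.6, 18.7 and 20.6 CPM in the Mib1 mutant and 14, 16 and 15.1 CPM in the Cre control. That pool, replicate 1, is low in Xist and also holds the high value of Dusp4. Without it the log2 value of Egr1 was 0.38 (edgeR adjusted p 0.171), and without both pools low in Xist 0.33 (0.347). Capicua, a repressor of Etv and Spry genes, was listed with Atxn1, Atxn1l, Srf and ETS factors. These 13 genes had a median of 0.04, with 0 calls and 0 at an unadjusted p under 0.05. Elk3 had the smallest p of them (log2 0.13, SE 0.07, edgeR adjusted p 0.465).

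In the triple heterozygote the genes with the smallest p in each list were Fgf1 (log2 -0.27), Frs2 (-0.22), Flt1 (-0.20), Sos2 (-0.22), Etv1 (-0.22), Ier2 (0.34) and Atxn1 (-0.16), at edgeR adjusted p of 0.565 to 0.605. The FGF ligand gene Fgf1 was at 36.8, 32 and 39.7 CPM in the triple heterozygote and at 46.5, 42.7 and 40.6 CPM in WT, without overlap. Between the control groups 0 of the 97 passed, with 5 (5.15%) at an unadjusted p under 0.05 beside 8.43% of all genes, while DESeq2 called 1. Fgf1 had the smallest p of its list there too (log2 -0.41, SE 0.11, edgeR adjusted p 0.174), as did Vegfa among the growth factors (0.45, SE 0.12, edgeR adjusted p 0.179), Etv1 among the relatives of the 9 genes (-0.33) and Ier2 among the other transcripts induced by ERK (0.34). For the difference between the 2 genotype effects 0 of the 97 passed and 12 (12.4%) had an unadjusted p under 0.05, beside 13.8% of all genes; DESeq2 and limma-voom called 0.

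**Figure D4:**
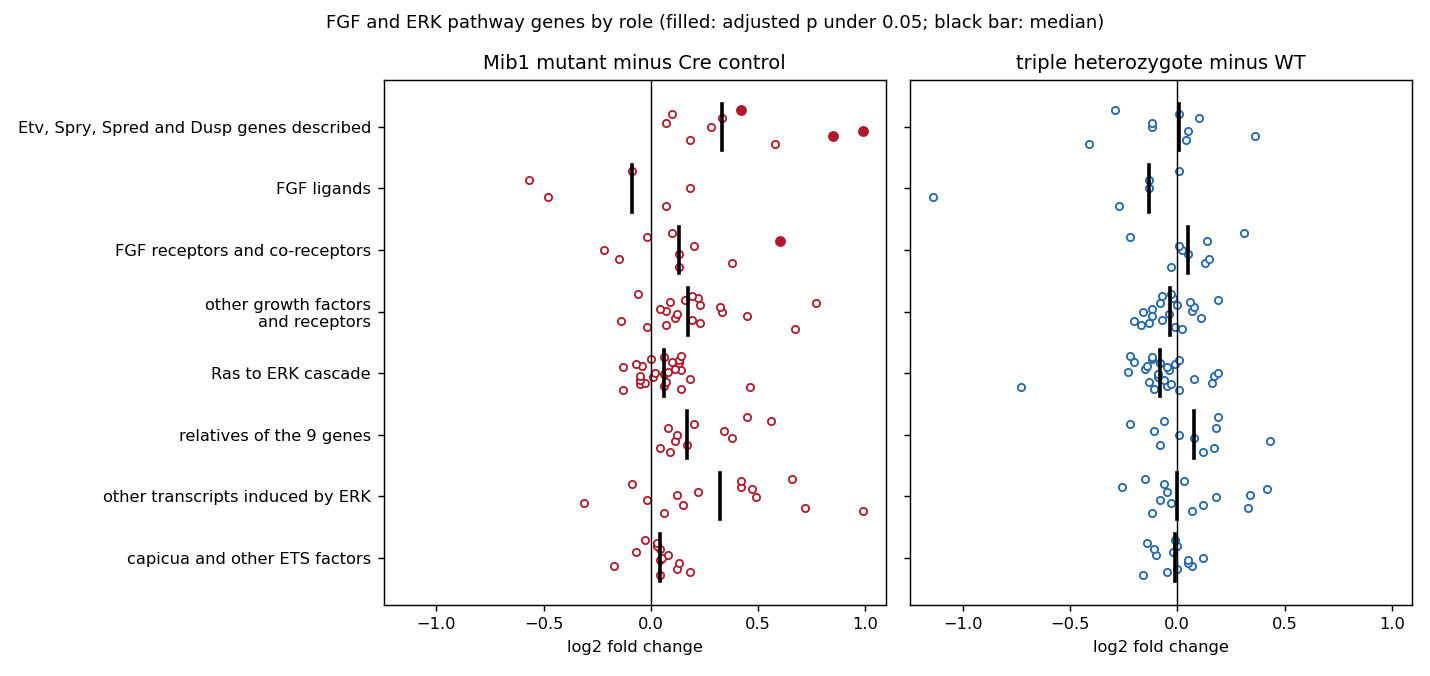
Log2 fold change of each tested gene (points) of the 9 genes described and of the 7 pathway lists, in Mib1 mutant minus Cre control (left) and triple heterozygote minus WT (right), on 1 axis. The median (black bar) of the 9 genes is 0.33 on the left and 0.01 on the right, and outside the 9 genes only Flrt3 (0.60, left) is filled.

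Marker sums of fibroblasts, epicardium and macrophages, and that of the genes listed as atrial, did not overlap between the Mib1 mutant and Cre control pools. Summed over 6 fibroblast markers, which were positive in all 6, the level was 2990 to 4000 CPM in the Mib1 mutant and 2810 to 2950 CPM in the Cre control. The 7 epicardial markers, all 7 positive, summed to 200 to 223 CPM in the Mib1 mutant and 173 to 193 CPM in the Cre control. Both sums of the Mib1 mutant overlapped those of the other groups. The fibroblast sum was 2450 to 3200 CPM in WT and 2610 to 4300 CPM in the triple heterozygote. For the epicardial sum these ranges were 171 to 203 and 176 to 223 CPM. The 6 macrophage markers were all negative and summed to 39.6 to 51.4 CPM in the Mib1 mutant and 61.7 to 82 CPM in the Cre control, and 2 of them fell. Of 7 cardiomyocyte markers 2 were positive, with a median log2 value of -0.10. Their sum was 25200 to 28900 CPM in the Mib1 mutant and 28000 to 31100 CPM in the Cre control, with overlap. Endothelial markers overlapped as well, at 886 to 1050 CPM in the Mib1 mutant and 851 to 964 CPM in the Cre control, as did the mural, endocardial and erythroid sums. Of the 5 genes listed as atrial 2 fell, Nppa (mean of 318 CPM in the Mib1 mutant and 846 CPM in the Cre control) and Bmp10 (4.51 CPM in the Mib1 mutant and 27.9 CPM in the Cre control). Nppa also averaged 815 CPM in the WT pools. The other 3 had positive values, among them Myl7, at 240 CPM in the Mib1 mutant and 158 CPM in the Cre control. Over all 5 the median log2 value was 0.03, and the sum was 382 to 809 CPM in the Mib1 mutant and 1010 to 1070 CPM in the Cre control. That sum mostly follows Nppa, and the amount of atrial tissue in the pools was not tested. The liver gene Alb was at 0 in 2 of the 12 pools and at most 9.6 CPM, and the neural crest gene Sox10 at 0 in 2 and at most 0.396 CPM. In the triple heterozygote 2 erythroid markers rose and the sum of the 6 was 7100 to 8320 CPM, against 4370 to 5140 CPM in WT. The part of these cell types in the levels of the 9 genes was not tested.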

How the data were processed

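PolyA RNA of 12 pools of ventricles was sequenced, and the deposited table holds expected counts per gene that the authors estimated from the reads, in which 9.64% of values were not whole. RSEM, cutadapt, limma, bcl2fastq 2.20.0.422 and the build GRCm38 appear in the submitters' processing notes without roles, and the aligner was not given in the sources used here. All 12 value columns were used. The table's MUT columns were taken as the triple heterozygote from their names. Expected counts were rounded and fitted in R 4.3.3 with edgeR 4.0.16 (filterByExpr, TMM scaling, quasi-likelihood F-test) over all 12 libraries in 4 groups, with 8 residual degrees of freedom and Benjamini-Hochberg adjustment over 13964 genes at a threshold of 0.05. Standard errors were the log2 fold change divided by the root of F, and 95% intervals used the t quantile on those 8 degrees. The intervals are therefore not those of the test and can be wider. Dusp4 in Mib1 mutant minus Cre control had an interval of -0.02 to 1.17 beside an unadjusted quasi-likelihood p of 0.0404. DESeq2 1.42.0 and limma-voom (limma 3.58.1) were alternatives, with other scalings, filters, subsets, each replicate left out and a replicate block. The procedure was tested on simulated data. The 9 genes and all lists were chosen with earlier results of these data known. Named beside the 9 were each called gene of the 7 lists, the member with the smallest p of a list with no call, and the 5 protein-coding genes most like the mean of the 9. Symbols, positions and exon lengths came from the GENCODE annotation, in which 36429 of the 38293 identifiers were found. The pools are separate ventricles, but shared litters are not stated, and p-values measure the spread between these pools only. No 2 libraries of 1 group agreed within sampling noise; pairs between groups were not compared.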

Additional observations from a re-analysis of the deposited data

Results flagged for a closer look

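For 2 of the 9 genes the effect in the Mib1 mutant differed from that in the triple heterozygote by the test of the difference itself, beside 0.322% of all genes in that direction. The 9 were listed with earlier results of these libraries known. Of 19 alternative settings, the call was kept in 11 for Etv5 and in 10 for Spry4. The log2 difference between the effects was 0.94 for Etv5 (SE 0.17, edgeR adjusted p 0.0224), with an effect of 0.99 for the Mib1 mutant and 0.05 for the triple heterozygote. It was 0.71 for Spry4 (SE 0.13, edgeR adjusted p 0.0257), with 0.42 for the Mib1 mutant and -0.29 for the triple heterozygote. The comparisons differ in Cre, in the loxP-flanked allele and in the Asxl3 and Apcdd1 alleles, whose parts cannot be told apart.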

How the results depend on the processing

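Of the 9 genes, 3 were called between the Mib1 mutant and its Cre control, but only 1 when the fit held only those libraries and 1 without the 2 pools low in Xist. Leaving out each replicate gave 1 to 3. For the difference between the 2 genotype effects 2 were called, 0 without the 2 pools low in Xist, and 0 to 2 with each replicate left out. Of the other pathway genes 1 was called in the Mib1 mutant, 2 with no filter on low counts, 0 in the fit of only those libraries, 0 without the 2 pools low in Xist and 0 to 2 with a replicate left out. In the difference of effects 0 of them were called, and 0 to 1 with a replicate left out. In the Cre control against WT 0 were called, 2 with no filter, 1 with DESeq2 and 1 with only the libraries compared. The cause was not tested. No called value changed sign. Over all genes, 210 were called in the Mib1 mutant, against 476 with no filter, 417 with DESeq2, 93 with only the libraries compared, 110 without the pools low in Xist and 116 to 415 with a replicate left out. In the triple heterozygote 3 were called, 54 with no filter, 28 with DESeq2, 10 with only the libraries compared, 7 without the pools low in Xist and 1 to 6 with a replicate left out. In the difference 72 were called, 246 with no filter, 167 with DESeq2, 41 without those pools and 28 to 233 with a replicate left out. In the Cre control 39 were called against WT, 144 with no filter, 82 with DESeq2, 68 with only the libraries compared and 23 to 46 with a replicate left out. The replicate block left 3 of the 9 genes called in the Mib1 mutant, 0 in the triple heterozygote, 2 in the difference and 0 in the Cre control, and 318, 3, 109 and 59 of all genes. The sample labels link pools of different groups only by replicate number, though replicate 1 of the Mib1 mutant and of the Cre control were both low in Xist. Same-numbered Mib1 mutant and Cre control pools had deviations that correlated at 0.172, 0.293 and 0.0951. Among the Cre control pools, Mib1 mutant replicates 1 and 2 correlated best with their own number, and replicate 3 with replicate 1. Etv4 (40 to 142) and Dusp4 (48 to 163) had the fewest reads per library of the 9 genes, and counting error is widest for them.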
